A study of Mus musculus with 4 samples.

Results

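Complement components and receptors were followed in sorted BM macrophages through 9 genes, found by symbol among the 31053 genes of the count matrices. C1qa, C1qb and C1qc encode the chains of C1q, C3 encodes the central component, and Cfp encodes properdin. C3ar1 and C5ar1 are the receptors of the C3a and C5a fragments, and Itgam and Itgax encode CD11b and CD11c, the alpha chains of complement receptors CR3 and CR4. All 9 genes passed the filter on low counts, which left 13869 genes to be tested.

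Single-cell RNA sequencing covered 4 libraries from 2 experiments, each with an efferocytic and a non-efferocytic library of BM macrophages. Macrophages were grown with M-CSF from bone marrow of male C57BL/6J mice, 4 weeks old by the description of the single-cell experiment and 4 to 6 weeks by the general methods. Efferocytic cells were F4/80+CFSE+ cells sorted after 16 to 18 h of co-culture with apoptotic, CFSE-labeled RM1 cells, a Ras and Myc driven prostate cancer line of the same strain. Non-efferocytic cells were sorted as F4/80+ only. The study's text describes them as BM macrophages alone, while the sorting protocol does not say whether RM1 cells were present, so uptake and contact with RM1 cells cannot be told apart. The methods give at least 3 mice per group for work with BM macrophages in general. How many stood behind a library is not given in the sources used here, and p-values refer to these 4 libraries. The test used estimates the spread of a gene partly from all genes tested. A standard error (SE) or p-value is therefore not that gene's own spread between libraries alone. The gate selects on surface F4/80 and on the dye, and therefore on uptake itself.

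Complement is a set of plasma and membrane proteins that mark targets for removal. C1q binds apoptotic cells and immune complexes and starts the classical pathway, properdin stabilizes the C3 convertase of the alternative pathway, and both pathways deposit C3 fragments on a target. Macrophages are a main source of C1q in tissues, whereas most C3 of plasma comes from the liver. CR3 and CR4 bind the iC3b fragment on opsonized cells, and the C3a and C5a receptors sense the small fragments that are released.

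Cells were barcodes with at least 200 genes, at least 1000 unique molecular identifiers (UMIs, which mark single captured mRNA molecules) and at most 10% mitochondrial UMIs, and 6695 to 13411 cells per library passed. A cell held a median of 11146 and 9600 UMIs in the non-efferocytic libraries and 17171 and 17476 in the efferocytic ones. Macrophage markers were present in every library (10 of 10 detected), but 6 of 10 were lower and 1 higher in efferocytic cells, and all 11 neutrophil markers and all 6 monocyte markers were lower. The libraries of Experiment 2 shared 118 cell barcodes, against 14 to 23 for the other pairs, and without those cells the calls on the 9 genes did not change. Levels are given in CPM, the UMIs of a gene per 1000000 UMIs of the cells of its library. The kit reads only the 3′ end of an mRNA, so a longer mRNA is not expected to give more UMIs.

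Over all sorted cells, C1qa and C3 were lower in the efferocytic libraries, C5ar1, Cfp and Itgax were higher, and C1qb, C1qc, C3ar1 and Itgam did not pass the test (edgeR quasi-likelihood test with the experiment as a block, Benjamini-Hochberg adjusted p under 0.05). These are 5 of 9 genes, while 38.9% of all genes tested were called, 19.9% higher and 19.0% lower. The efferocytic and non-efferocytic libraries did not overlap in CPM for 7 of the 9 genes, 4 lower and 3 higher in efferocytic cells, against 66.9% of all genes tested (44.7% lower and 22.2% higher). With so common a difference in the background, nothing is read from the number of calls.

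**Figure D1:**
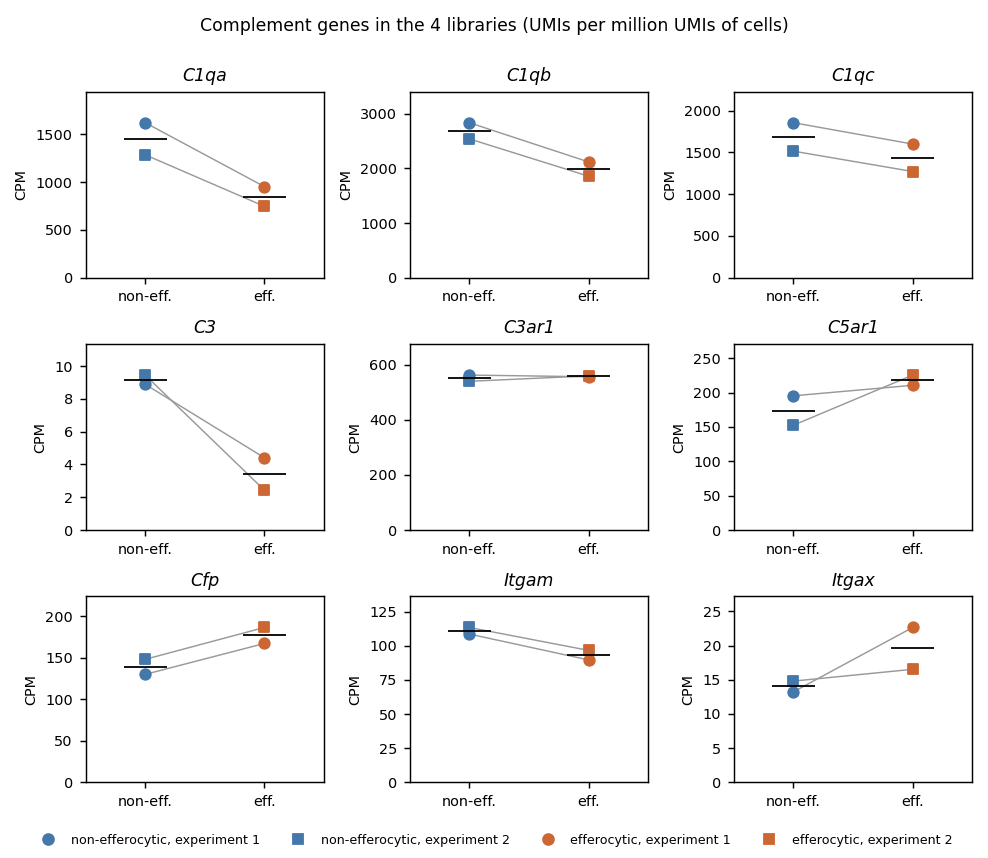
CPM of the 9 genes in each library, with circles for Experiment 1, squares for Experiment 2, grey lines joining the libraries of an experiment and black bars for group means; axes start at 0. C1qa, C1qb and C3 stand lower in both efferocytic libraries, Cfp stands higher in both, and C3ar1 stays between 540 and 563 CPM in all 4.

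Among the C1q chains, C1qa showed the clearest difference. It stood at 1623 and 1287 CPM in non-efferocytic cells of Experiments 1 and 2 and at 953 and 747 CPM in efferocytic cells. Both efferocytic libraries were below both non-efferocytic ones, and the log2 ratio within the experiments was -0.77 and -0.79. The fitted log2 fold change was -0.67 ± 0.121 (SE; edgeR adjusted p = 0.00403), somewhat smaller because the fit rescales the libraries to their typical gene. The call was lost without the block (edgeR adjusted p = 0.0722) and in 3 of 4 fits with a library left out, where the log2 fold change ran from -0.89 to -0.46.

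C1qb, the most abundant chain, was measured at 2834 and 2538 CPM in non-efferocytic and at 2117 and 1856 CPM in efferocytic cells. The groups did not overlap, yet the fitted log2 fold change of -0.33 ± 0.138 missed the threshold (edgeR adjusted p = 0.0929). It passed with DESeq2 (adjusted p = 0.0109), with library totals in place of rescaling (edgeR adjusted p = 8.36e-04) and among genes of at least 10 CPM (edgeR adjusted p = 0.0274). C1qc was at 1856 and 1515 CPM in non-efferocytic and at 1600 and 1271 CPM in efferocytic cells, which overlap across experiments. Its log2 fold change was -0.13 ± 0.128 (edgeR adjusted p = 0.460).

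The 3 genes lie side by side on chromosome 4 (GRCm38, 136880129 to 136898803, minus strand, a span of 18675 bp with 0 other genes inside). Itgam and Itgax are near neighbors on the plus strand of chromosome 7 (128062640 to 128150657, with 2 other genes inside this span). The sequence before the gene start is shown for the members that are neighbors on a chromosome and have an entry in the RefSeq promoter table, C1qb and C1qc, and Itgam and Itgax. Each is written 5′ to 3′ on the strand of the gene and ends before the first annotated exon. Capitals mark the PU box, GAGGAA on either strand, a core sequence bound by PU.1, the ETS factor of myeloid cells.
C1qb: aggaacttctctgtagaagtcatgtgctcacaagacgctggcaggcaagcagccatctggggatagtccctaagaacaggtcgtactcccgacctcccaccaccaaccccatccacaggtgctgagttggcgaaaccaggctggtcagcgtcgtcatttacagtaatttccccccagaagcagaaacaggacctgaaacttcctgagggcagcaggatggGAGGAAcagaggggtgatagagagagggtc
C1qc: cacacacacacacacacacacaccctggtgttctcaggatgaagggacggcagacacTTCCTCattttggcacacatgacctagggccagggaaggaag
Itgam: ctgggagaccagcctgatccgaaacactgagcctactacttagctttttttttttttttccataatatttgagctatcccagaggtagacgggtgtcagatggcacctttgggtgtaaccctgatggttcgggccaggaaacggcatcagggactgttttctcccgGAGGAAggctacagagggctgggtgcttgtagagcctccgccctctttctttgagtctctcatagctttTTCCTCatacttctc
Itgax: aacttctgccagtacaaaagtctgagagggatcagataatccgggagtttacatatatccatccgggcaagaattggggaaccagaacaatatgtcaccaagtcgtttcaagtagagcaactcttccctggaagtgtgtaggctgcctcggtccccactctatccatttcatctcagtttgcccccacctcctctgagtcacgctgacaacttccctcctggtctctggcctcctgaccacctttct
These stretches lie at chr4:136886201-136886450 (C1qb) and chr4:136893066-136893164 (C1qc) on the minus strand and at chr7:128062390-128062639 (Itgam) and chr7:128129300-128129546 (Itgax) on the plus strand of GRCm38.p6. The motif search used the 250 bases before the RefSeq start, which for C1qc, C3ar1, C5ar1 and Itgax lies inside the gene as annotated by GENCODE, so that for C1qc and Itgax the window reaches past the printed stretch. In this window, the PU box was found in C1qb, C1qc and Itgam, 3 of the 8 members with an entry in the RefSeq promoter table, and in 23.3% of all 32851 promoters. The AP-1 site TGANTCA was found in C3ar1 and Itgax (6.75% of all promoters), and the MAF site TGCTGA in C1qb, C3, C3ar1 and C5ar1 (16.1%). The composite ETS-IRF site (2.30%) and the HIF core ACGTG (16.6%) were in none of the 8 windows. Both strands were searched, and the MAF site can overlap an AP-1 site.

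The balance of the C1q chains differed between the groups and does not depend on how libraries are scaled. C1qa made up 25.7% and 24.1% of all C1q UMIs in non-efferocytic cells and 20.4% and 19.3% in efferocytic cells. C1qb kept nearly the same share, at 44.9% and 47.5% against 45.3% and 47.9%. C1qc made up 29.4% and 28.4% in non-efferocytic and 34.3% and 32.8% in efferocytic cells.

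Expressed as C1qa UMIs per C1qc UMI, the value was 0.862 ± 0.0178 (SD, n = 2) in non-efferocytic and 0.592 ± 0.00584 (SD, n = 2) in efferocytic libraries. The difference of -0.270 is far beyond the spread within groups, while an exact permutation test of 2 against 2 libraries gives p = 0.333, the smallest two-sided value it can reach. The ratio was lower in efferocytic cells in all 8 comparisons of cells of like depth, and within a library it was lowest in the deepest cells. It was also lower among barcodes of under 100 UMIs, which hold free RNA rather than cells, at 0.977 and 1.09 in the non-efferocytic and 0.70 and 0.812 in the efferocytic libraries.

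**Figure D2:**
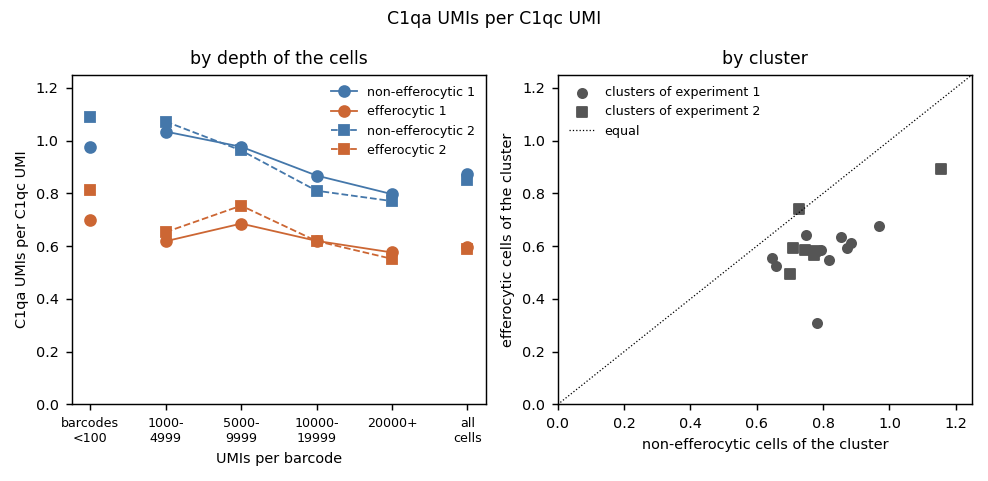
C1qa UMIs per C1qc UMI. Left, by UMIs per barcode in each library, with free RNA at the left end and all cells at the right end. Right, efferocytic against non-efferocytic cells of the same cluster, 1 point per cluster with at least 50 cells of each group, where 16 of 17 points lie below the dotted line of equality.

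The ratio was also compared within clusters. Cells of each experiment were clustered with the 9 genes left out of the clustering. Many clusters came mostly from 1 group, where cluster and library cannot be told apart, and 17 clusters had at least 50 cells and more than 3 UMIs of both chains in each group. Of these, 2 were unnamed clusters of shallow cells, 2 had a monocyte marker (F13a1 or Ccr2) and no macrophage marker among their leading genes, and the rest were macrophage-like. In 16 of the 17, C1qa per C1qc was lower in efferocytic cells. The exception was the cluster of Experiment 2 led by MHC class II genes and Ccr2, with 0.727 in 995 non-efferocytic and 0.740 in 53 efferocytic cells. Clusters of 1 experiment share their libraries and are not replicates of each other.

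The level of C1qa varied more between clusters than between groups. In non-efferocytic macrophage-like clusters of at least 20 cells it ran from 182 to 2018 CPM, highest in the large cluster of Experiment 1 led by Gpr34, Ier3 and Hpgd. Clusters led by Trib3, Phgdh and Asns, genes of the amino acid response, held little of it, with 372 and 393 CPM in the non-efferocytic cells against 240 and 204 CPM in the efferocytic cells of the 2 experiments. The lowest level was in a small cluster of Experiment 1 led by Cav1, with 182 CPM in 61 non-efferocytic and 23.4 CPM in 55 efferocytic cells, where C1qb, C1qc, C5ar1 and Itgam were low as well and C3ar1 was not (820 and 638 CPM).

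Within clusters, C1qa was lower in efferocytic cells in 14 of 17, C1qb in 15 of 18 and C1qc in 12 of 18. Among macrophage-like clusters these counts were 12, 12 and 9 of 15. The 18 include a lymphocyte-like cluster of Experiment 2 with few UMIs. It held 20 C1qb and 11 C1qc UMIs in non-efferocytic and 8 and 7 in efferocytic cells. C1qa was higher in efferocytic cells in the MHC class II cluster named above (1131 against 1094 CPM) and in the 2 clusters led by Cdkn1c, to which 2938 efferocytic and 120 non-efferocytic cells of Experiment 1 belonged and 2125 and 299 of Experiment 2. There C1qa stood at 809 CPM in efferocytic and 637 CPM in non-efferocytic cells of Experiment 1 and at 600 and 361 CPM in Experiment 2. The Cdkn1c cluster of Experiment 2 also had Itgb7, Ifrd1, Rhov and Cav1 among its leading genes, as did the Cav1 cluster of Experiment 1. Its non-efferocytic cells held 18.2 CPM of Itgam and its efferocytic cells 54.5 CPM. Whether both groups hold the same kinds of cells in this cluster was not tested. As 1 library stood behind each of these values, they are descriptions without a test. Comparisons within clusters and at like depth use CPM without rescaling. With library totals in place of rescaling, the median log2 fold change over all genes tested was -0.12. The share of all genes that were lower within clusters was not counted, so nothing is read from the number of clusters.

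C3 was the rarest of the 9 genes and had the largest fold change. It was at 8.89 and 9.45 CPM in non-efferocytic and at 4.41 and 2.43 CPM in efferocytic libraries, without overlap, with log2 ratios of -1.01 and -1.96 in the experiments. The fitted log2 fold change was -1.37 ± 0.216 (edgeR adjusted p = 0.00224). Its UMIs, however, came in large part from few cells that were not macrophage-like.

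Neutrophil-like clusters made up 0.906% and 0.895% of non-efferocytic and 0.358% and 0.262% of efferocytic cells, and they held 65.9% and 58.3% of the C3 UMIs of the non-efferocytic and 42.1% and 31% of those of the efferocytic libraries. C3 stood at 449 and 368 CPM in these cells in the non-efferocytic and at 479 and 249 CPM in the efferocytic libraries. In macrophage-like clusters it stood at 2.77 and 3.37 CPM in non-efferocytic and at 2.62 and 0.972 CPM in efferocytic cells. Over macrophage-like clusters alone the log2 fold change of C3 was -0.83 and was not called (edgeR adjusted p = 0.0880). In 8 clusters each group had at least 50 cells and more than 3 C3 UMIs. C3 was lower in efferocytic cells in 3 of them and higher in 5. Of these 5, 1 is the MHC class II and Ccr2 cluster that the macrophage-like sum leaves out. The UMI limit drops clusters with little C3 in either group, and some of the 8 held only 4 or 5 C3 UMIs in a group. No direction is read from these counts. The summed level of the 11 neutrophil markers was 3080 and 3392 CPM in the non-efferocytic libraries against 964 and 721 CPM in the efferocytic ones, with none at 0, and fewer cells of a type and less RNA per cell cannot be told apart in such sums.

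Some C3 lay elsewhere. A fibroblast-like cluster of Experiment 2, led by Dcn, C4b and Nupr1, held 391 CPM in 79 non-efferocytic and 843 CPM in 27 efferocytic cells of low depth. Among macrophage-like clusters the highest level was 40.1 CPM, in 281 non-efferocytic cells of Experiment 2 led by interferon-stimulated genes and Saa3. Barcodes of under 100 UMIs held more C3 than the cells did, at 16.2 and 26.5 CPM in the non-efferocytic and 14.4 and 27.2 CPM in the efferocytic libraries. After 10% of the UMIs of each library were removed in proportion to this free RNA, the C3 fold change was -3.47 and was not called (edgeR adjusted p = 0.229). In the efferocytic library of Experiment 2 the free RNA held 11.2 times the C3 level of the cells, so the removal left no C3 UMI there. The value of -3.47 rests on this floor, and nothing is read from this fit for C3.

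**Figure D3:**
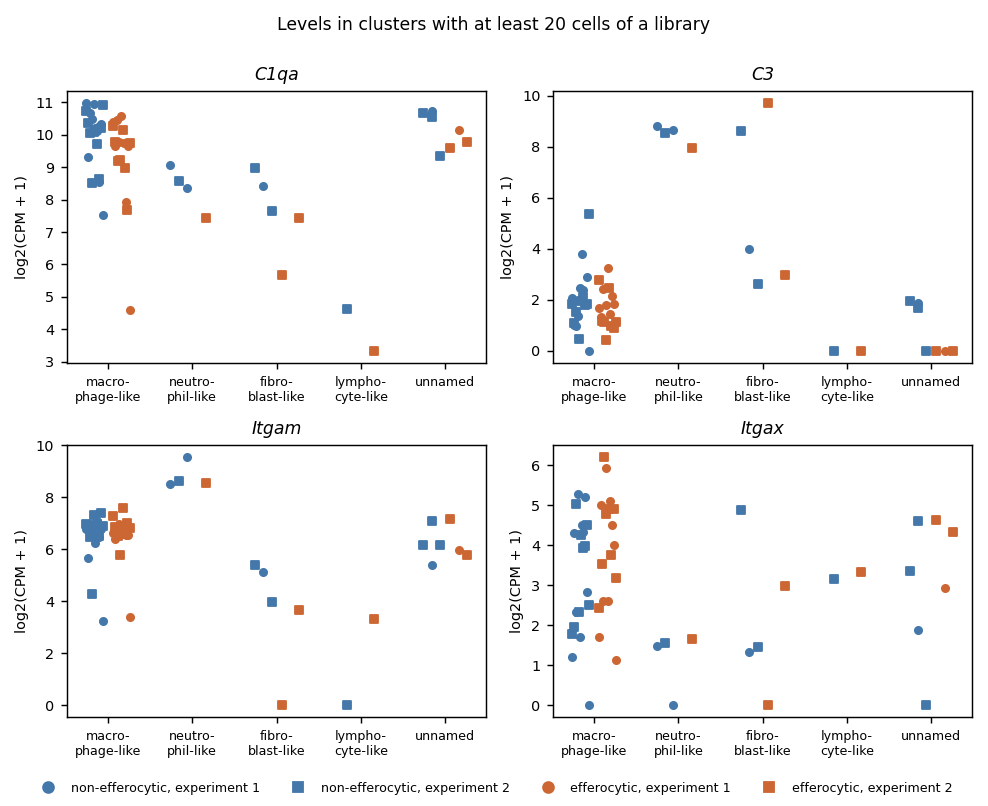
Levels of C1qa, C3, Itgam and Itgax, as log2(CPM + 1), in clusters with at least 20 cells of a library, 1 point per cluster and library, grouped by the markers that name the cluster. Itgam is highest in neutrophil-like clusters, C3 in 1 fibroblast-like cluster and next in neutrophil-like ones, C1qa in macrophage-like ones, and Itgax spreads from 0 to 72.5 CPM among macrophage-like clusters.

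Cfp, the gene of properdin, a positive regulator of the alternative pathway, was higher in efferocytic cells. It stood at 130 and 148 CPM in non-efferocytic and at 167 and 187 CPM in efferocytic libraries, and the groups did not overlap. The log2 ratio was 0.36 and 0.33 in the 2 experiments and the fitted log2 fold change 0.45 ± 0.0881 (edgeR adjusted p = 0.00544).

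This difference was also seen inside clusters. In 17 of 17 clusters with at least 50 cells of each group and more than 3 UMIs, Cfp was higher in efferocytic cells, by log2 ratios of 0.04 to 2.62. In the cluster of Experiment 1 led by Cdkn1c it was at 65.3 CPM in non-efferocytic and at 160 CPM in efferocytic cells. The ratio of 2.62 was that of the Cdkn1c cluster of Experiment 2, with the limit given above. There Cfp was at 19.2 CPM in non-efferocytic and at 118 CPM in efferocytic cells. In cells of like depth it was higher in 7 of 8 comparisons, the exception being cells of under 5000 UMIs in Experiment 2 (179 CPM in non-efferocytic and 135 CPM in efferocytic cells).

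Of the receptors of the small fragments, C5ar1 passed the test and C3ar1 did not, and the difference between them was not tested. C3ar1 was at 563 and 540 CPM in non-efferocytic and at 556 and 560 CPM in efferocytic libraries, which overlap, with a log2 fold change of 0.13 ± 0.105 (edgeR adjusted p = 0.372). C5ar1 was at 195 and 153 CPM in non-efferocytic and at 211 and 225 CPM in efferocytic libraries. The groups did not overlap, and the fitted log2 fold change was 0.44 ± 0.111 (edgeR adjusted p = 0.0159), but the experiments differed in size, with log2 ratios of 0.11 and 0.56.

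C5ar1 was higher in efferocytic cells in 10 of 17 clusters and lower in 7. In the clusters led by Trib3, Phgdh and Asns it was lower, at 87.0 and 77.6 CPM in efferocytic against 159 and 156 CPM in non-efferocytic cells. In the Cdkn1c cluster of Experiment 2 it was higher, at 273 against 75.9 CPM. This cluster shares leading genes with the Cav1 cluster of Experiment 1, and whether its groups hold the same kinds of cells was not tested. Over macrophage-like clusters, less those with a monocyte marker among their leading genes, the log2 fold change of C5ar1 was 0.34 (edgeR adjusted p = 0.0330). After removal of free RNA it was 0.42 and not called (edgeR adjusted p = 0.0925). C3ar1 was lower in efferocytic cells in 14 of 17 clusters, while in cells of like depth it was higher in 7 of 8 comparisons. Both counts use CPM without rescaling and have no share of all genes beside them, so no direction is read from them. C5ar2, the second C5a receptor, had 15.0 and 13.3 CPM in the non-efferocytic libraries against 13.3 and 10.6 CPM in the efferocytic ones and was not called (edgeR adjusted p = 0.254).

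Of the integrin chains, Itgam was at 109 and 113 CPM in non-efferocytic and at 89.6 and 96.6 CPM in efferocytic libraries. The groups did not overlap, but the log2 fold change of -0.15 ± 0.0806 was not called (edgeR adjusted p = 0.181). With library totals it was called (log2 fold change -0.25, edgeR adjusted p = 0.0364). Neutrophil-like cells, which also carry CD11b, held 362 to 745 CPM of Itgam in non-efferocytic clusters and 5.03% and 5.13% of its UMIs in those libraries. Over macrophage-like clusters the log2 fold change was -0.11 (edgeR adjusted p = 0.301). Within clusters Itgam was lower in efferocytic cells in 6 of 17 and higher in 11. Itgam overlaps the gene Gm49368 on the same strand, which had 1.38 to 1.79 CPM, and reads of the 2 could be split between them.

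Itgax was at 13.2 and 14.8 CPM in non-efferocytic and at 22.6 and 16.5 CPM in efferocytic libraries. The groups did not overlap and the fitted log2 fold change was 0.57 ± 0.148 (edgeR adjusted p = 0.0182), and the log2 ratio was 0.77 in the first experiment and 0.16 in the other. After removal of free RNA the log2 fold change was 0.56 and was not called (edgeR adjusted p = 0.117). The difference moved with depth. In cells of at least 20000 UMIs Itgax stood at 27.6 and 25.9 CPM in non-efferocytic and at 25.4 and 21.1 CPM in efferocytic cells, and it was higher in efferocytic cells in 5 of 8 comparisons of like depth.

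Itgax was highest in a group of clusters led by Slamf8, Mmp12 and, in Experiment 1, MHC class II genes. It reached 37.6 and 31.8 CPM in their non-efferocytic and 59.5 and 72.5 CPM in their efferocytic cells, although few cells of the efferocytic libraries belonged to them (193 and 140 cells against 1519 and 3350). Of the Itgax UMIs of the efferocytic libraries, these clusters held 241 of 2830 and 119 of 2565. The clusters led by Cdkn1c held 1991 and 1182 of them, at 31.2 and 26.3 CPM. In the large clusters led by Gpr34 and Hpgd Itgax was at 1.31 and 2.42 CPM in non-efferocytic cells. Within clusters it was higher in efferocytic cells in 11 of 13. Markers of dendritic cells, which carry CD11c, were at 1.03 to 4.81 CPM in sum, and 0 to 3 of the 9 were at 0 in a library.

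Beyond summed levels, the share of cells with a UMI was compared after each cell was thinned to 5000 UMIs, which left out 1099 and 3404 shallower cells of the non-efferocytic and 544 and 505 of the efferocytic libraries. C1qa was found in 91.8% and 89.2% of non-efferocytic and in 82.5% and 77.1% of efferocytic cells. C5ar1 was found in 54.8% and 47.6% against 58.9% and 60.2%. Cfp was found in 45.2% and 49.2% against 53.1% and 56.0%.

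Itgax was rare, in 3.48% and 4.49% of non-efferocytic and 7.93% and 5.59% of efferocytic cells, and C3 rarer still, in 2.46% and 2.09% against 1.38% and 0.620%. Itgam was found in 36.8% and 39.8% of non-efferocytic and in 32.5% and 35.6% of efferocytic cells. Without thinning its order turned, to 56.7% and 51.0% against 64.5% and 67.7%, at the greater depth of the efferocytic cells. The exact binomial interval (95%, counting error only) ran from 81.6% to 83.5% for C1qa and from 57.7% to 60.2% for C5ar1 in efferocytic cells of Experiment 1.

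Neutrophil-like cells, which should lack C1q, served as a reference for these shares. Macrophage markers were also detected in them (6 to 10 of 10 per cluster), so they are not a clean background. At the same 5000 UMIs, 51.4% and 50% of the 70 and 112 such cells of the non-efferocytic libraries and 30.4% and 19.0% of the 23 and 21 of the efferocytic ones had a UMI of C1qa. The source of these UMIs was not tested. All shares of C1qa over all cells were above this level. For Itgam the order was opposite, with a UMI in 81.4% to 85.7% of neutrophil-like cells. Lymphocyte-like cells of Experiment 2 were shallow (median 1499 and 1450 UMIs) and are given without thinning. A UMI of C1qa was found in 4.00% of 75 non-efferocytic and 1.52% of 66 efferocytic ones. Their C1qa level was 23.5 and 9.06 CPM, against 380 and 172 CPM in neutrophil-like cells of that experiment.

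**Figure D4:**
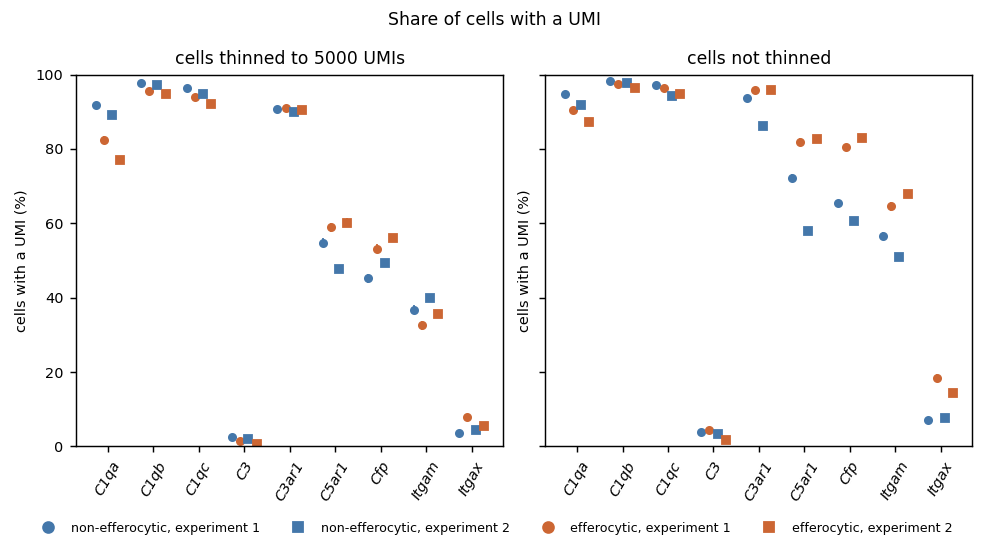
Share of cells with a UMI of each gene in percent, with exact 95% binomial intervals, in cells thinned to 5000 UMIs (left) and not thinned (right). C1qa is lower and C5ar1 and Cfp are higher in both efferocytic libraries in both panels, while Itgam turns from lower to higher without thinning.

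The C1q chains were found together in most cells. All 3 had a UMI in 90.9% and 87.3% of thinned non-efferocytic cells and in 80.7% and 74.7% of efferocytic cells. The median cell held 31 and 27 C1q UMIs in the non-efferocytic and 21 and 18 in the efferocytic libraries, and 1.55%, 1.36%, 2.11% and 3.07% of cells in the same order held none. C3ar1 and C5ar1 were found together in 50.3% and 43.6% of non-efferocytic and in 54.6% and 55.9% of efferocytic cells.

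Across thinned cells the C1q chains were most like each other, as a description over 4 libraries whose cells share depth and free RNA. The mean Pearson r was 0.744 for C1qb with C1qc, 0.649 for C1qa with C1qc and 0.616 for C1qa with C1qb. The next gene was Selenop for C1qa (0.425), Apoe for C1qb (0.539) and Ms4a7 for C1qc (0.487). Cfp was most like C1qb (0.206), Apoe (0.194) and C1qc (0.193). The genes most like C3ar1 were Ctsb (0.267), Sirpa (0.195) and Ctsd (0.176), those most like C5ar1 were Cd36 (0.184), Lpl (0.181) and Actb (0.156), and those most like Itgam were Cd52 (0.149), Cybb (0.130) and Alox5ap (0.127), all weak. C3 and Itgax had too few cells with a UMI to be placed.

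Several directions depended on how libraries are put on 1 scale. Efferocytic cells held more UMIs, and when each library was scaled to its number of cells the typical gene (median over all genes tested) moved from -0.02 to 0.60 in log2 fold change. Per cell, C1qa was then nearly level (19.8 and 13.3 UMIs in non-efferocytic and 17.8 and 13.8 in efferocytic cells), with a log2 fold change of -0.05 (edgeR adjusted p = 0.738). C1qb, C1qc and Itgam turned positive on this scale, with log2 fold changes of 0.29, 0.49 and 0.47, called for C1qb and C1qc (edgeR adjusted p = 0.0113 and 1.39e-04) and not for Itgam. Relative to the median of all genes, C1qa stood at -0.65, C1qc at -0.11, Cfp at 0.47 and C5ar1 at 0.46. C3 was lower (-0.76) and C5ar1, Cfp, Itgax and C3ar1 were higher (0.74 to 1.19) on this scale.

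Fits with 1 library left out also lost calls, among the 9 genes and among all genes. Leaving out the non-efferocytic library of Experiment 1 or that of Experiment 2 left 0 of 9 genes called in edgeR (3 and 3 at an unadjusted p under 0.05, and DESeq2 was not run), with 2 and 0 of all genes called. These fits have no block, and the lone library is assumed to vary like the other group. Without the efferocytic library of Experiment 1, C1qa, C3 and Cfp were called, and without that of Experiment 2, C3 and Itgax were. The log2 fold change over the 4 fits ran from -1.84 to -0.91 for C3, from 0.27 to 0.63 for C5ar1, from 0.37 to 0.56 for Cfp and from 0.31 to 0.84 for Itgax, while C1qc ran from -0.33 to 0.07.

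**Figure D5:**
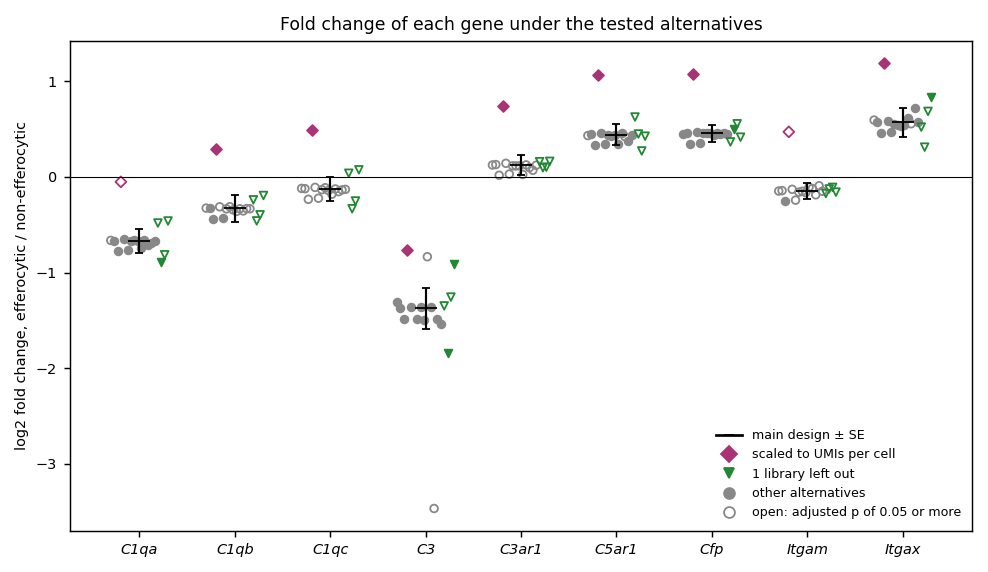
Log2 fold change of each gene under the main design (black, with its SE) and under the alternatives, filled where the adjusted p was under 0.05. Cfp and C5ar1 keep a positive and C3 a negative sign throughout, whereas scaling to UMIs per cell (diamonds) turns C1qb, C1qc and Itgam positive.

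The rest of the pathway was taken from a list of 53 other complement genes in 7 roles, of which 52 were in the files, 10 had no UMI in any library and 30 were tested. Of these, 7 were higher and 7 lower, against the 19.9% and 19.0% of all genes, and their median log2 fold change was -0.40, with -0.02 over all genes tested. Among the 7 higher genes, 5 were receptors or C1q-binding proteins.

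In the classical pathway 3 of 5 tested genes were lower, and all were rare. The proteases C1ra and C1rl had log2 fold changes of -0.73 and -0.86, and C4b, a source of C4, one of -1.05. Fibroblast and stromal markers were lower as well, 7 of 10 called and none at 0, with a summed level of 203 and 176 CPM in the non-efferocytic libraries against 68.0 and 76.3 CPM in the efferocytic ones, and their part in these differences was not tested. In the lectin pathway Fcnb, a ficolin of bone marrow myeloid cells, fell by 1.48 on the log2 scale, beside the lower neutrophil and monocyte markers, whose part was not tested, and Fcna rose by 0.28. Cfb, the protease of the alternative pathway, fell by 1.57 from a level below 1 CPM. Of the terminal pathway, 5 of 7 genes had no UMI and C8g was the one tested (log2 fold change -0.46, edgeR adjusted p = 0.196).

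Among the fluid-phase regulators, Serping1, the C1 inhibitor, and Clu, clusterin, had log2 fold changes of -1.07 and -0.18 at levels near or under 1 CPM and were not called. Cd59a, a membrane inhibitor of the terminal complex, rose from 10.5 and 10.8 to 15.9 and 16.4 CPM (log2 fold change 0.71), the only one called of 5 tested membrane regulators. Cr1l (Crry), which limits C3 deposition on rodent cells, was at 53.9 and 55.6 CPM in non-efferocytic and at 52.1 and 55.5 CPM in efferocytic libraries and was not called (edgeR adjusted p = 0.412).

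Of 9 tested receptors and C1q-binding proteins, 5 were higher and 1 lower. Calr, which encodes calreticulin, an endoplasmic reticulum chaperone that can bind C1q on the cell surface, was at 207 and 184 CPM in non-efferocytic and at 517 and 519 CPM in efferocytic libraries (log2 fold change 1.51). Lair1, an inhibitory receptor that binds C1q, had a log2 fold change of 0.61, Cd93 one of 0.53 and Lrp1, the partner of calreticulin in uptake, one of 0.48. Scarf1, a scavenger receptor that binds C1q, was lower (-0.40). Listed markers of RM1 or epithelial cells summed to 31.8 and 33.7 CPM in the non-efferocytic and to 36.5 and 45.5 CPM in the efferocytic libraries. Of 7 tested, Hmga2 was called higher and 6 were not called. A part of engulfed RM1 RNA in the higher complement genes was not tested.

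Of the partners of the integrin chains, Itgal (CD11a) fell by 1.32 on the log2 scale, beside all 11 neutrophil and all 6 monocyte markers (median log2 fold changes of -1.80 and -1.48), whose part was not tested, and Icam1, a ligand, by 0.52, while Itgb2, the shared beta chain, was at 209 and 244 CPM in the non-efferocytic libraries, against 231 and 255 CPM in the efferocytic ones, and was not called (edgeR adjusted p = 0.111). Among 8 factors known to act on C1q genes or in uptake, the nuclear receptor genes Nr1h3 and Pparg rose by 1.10 and 0.33, and Irf8, a factor of myeloid cells, fell by 0.50. Spi1, which encodes PU.1, had a log2 fold change of -0.15 and was not called (edgeR adjusted p = 0.236).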

How the data were processed

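UMI counts per gene and barcode were deposited by the authors as raw matrices, made with Cell Ranger from reads mapped to mm10, with no normalization, no cell filter and libraries kept apart. The submitters' processing notes name Cell Ranger 3.0.0 and Seurat 3.1, and the file headers name 3.0.0 for Experiment 1 and 3.1.0 for Experiment 2. The barcode and gene lists were used as indices only.

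The counts of all cells of a library were added up (101216659 to 155224183 UMIs) and tested across all genes with edgeR 4.0.16 (TMM, filterByExpr, quasi-likelihood test, experiment as a block) in R 4.3.3, on 13869 genes. The block follows the labels, which tie libraries to an experiment. Libraries of an experiment deviated together from their group means (r = 0.616 across 7051 genes). DESeq2 1.42.0, other scalings, gene and cell filters, removal of doublets or free RNA and leaving out each library were alternatives. Cells were clustered per experiment without complement genes (5000 variable genes, 20 principal components, Leiden resolution 0.5, leidenalg 0.10.2, scikit-learn 1.9.0) and clusters named by markers, with naming limits set after the data were seen. Some macrophage-like clusters had 1 listed monocyte marker (F13a1 or Ccr2) and no listed macrophage marker among their 10 leading genes. These were kept out of the macrophage-like comparison. Together they held 6.69% and 7.42% of non-efferocytic and 8.32% and 0.630% of efferocytic cells. In Experiment 1 they included a mostly efferocytic cluster led by Arg1, Ankrd37 and Egln3 (0.664% of non-efferocytic and 8.04% of efferocytic cells). Doublets were scored but kept. A count of 0 allows up to 0.0193 to 0.0296 CPM per library, and intervals and floors cover counting error only. The scripts were tested on simulated data.

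The 9 genes are always named. Other genes of a role are named when called with the largest changes, up to 4 per role, and the 3 genes most correlated with each member are named. Where under 2 genes of a role are called, its most abundant genes are named too. C5ar2, Itgb2, Spi1 and Scarf1 were added after their values were seen. C4a is not analysed here. Some genes that the rule would name are not reported here. Members and lists were chosen with earlier results of these data known. Promoter sequences are from RefSeq (GRCm38.p6), positions of genes from GENCODE vM21. The authors' integration and tests on cells were not repeated.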

Additional observations from a re-analysis of the deposited data

Results flagged for a closer look

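Barcodes too shallow to count as cells entered no test, and some of the 9 genes were higher there in both efferocytic libraries than in both non-efferocytic ones. Among barcodes of under 100 UMIs this was so for C5ar1, with 1.30 times the mean CPM of the non-efferocytic libraries. Among barcodes of 100 to under 1000 UMIs it was so for C3ar1 (1.15 times), C5ar1 (1.31 times), Cfp (1.37 times) and Itgax (1.92 times). The means behind the last value were 18.9 CPM in efferocytic and 9.82 CPM in non-efferocytic libraries. These differences were not tested, and a two-sided exact permutation test of 2 against 2 libraries cannot reach a p under 0.333.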

How the results depend on the processing

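Without the replicate block, 1 gene of the 9 was called higher and 1 lower (3 and 2 with it), and C1qa, C5ar1 and Itgax lost their call (edgeR adjusted p = 0.0722, 0.0862 and 0.0905). The same counts were 6 and 1 per cell, 1 and 1 after removal of free RNA (where C3, C5ar1 and Itgax lost their call), 4 lower with library totals and 1 lower in macrophage-like clusters. The removal of free RNA left the efferocytic library of Experiment 2 without a C3 UMI. Among other complement genes (7 and 7), 12 were higher per cell, and fewer were lower without the block (3), with DESeq2 (3), per cell (2), above 10 CPM (1, where fewer genes are tested) and after removal of free RNA (3). Leaving out 1 library, the members called ranged from 0 to 1 higher and from 0 to 2 lower, and the other complement genes from 0 to 5 and from 0 to 4. Direction turned for C1qb (0.29), C1qc (0.49) and Itgam (0.47) per cell, and for C1qc without the non-efferocytic library of Experiment 1 (0.039) or the efferocytic one of Experiment 2 (0.075), within a range of -0.33 to 0.075 over the libraries left out; the cause was not tested. All genes called were 2761 higher and 2636 lower, 1285 and 1073 without the block, 1987 and 1417 with DESeq2, 1847 and 3700 with library totals 6921 and 586 per cell, 1473 and 1553 above 10 CPM and 1391 and 1082 after removal of free RNA, and ranged from 0 to 1658 and from 0 to 1275 with 1 library left out. Members with a lower share of cells in both experiments fell from 5 to 2 without thinning. C1qa per C1qc stayed within its spread in all 8 cell alternatives, which were chosen after seeing the data, as was the removal of shared barcodes.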
